A study of Mus musculus with 24 samples.

Results

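Transfer RNAs for arginine, asparagine and isoleucine, and the fragments cut from them, were followed across mouse CD4+ T cells and the extracellular vesicles (EVs) the cells released into their culture medium. Of 4408 features in each count file, 66 bore a name that began with tRNA-Arg-, tRNA-Asn- or tRNA-Ile- and were taken as members. They were 28 arginine, 17 asparagine and 21 isoleucine features out of 780 nuclear tRNA features. C57BL/6 mice gave the T cells, from lymph nodes and spleen, and Trizol was used for RNA. The 24 libraries formed 8 groups of 3, cells and EVs from each of 4 cultures. Resting cultures went through 2 days of stimulation and 1 day of expansion, followed by 2 days of rest in medium with IL2. Stimulated cultures had spent 3 days with anti-CD28 at 5 µg/ml over plates coated with anti-CD3 at 2 µg/ml. The DMSO and GW4869 cultures were likewise stimulated for 3 days, with no antibody dose in the labels, in the presence of DMSO (the vehicle) or of GW4869, an inhibitor of neutral sphingomyelinase, which is an enzyme of vesicle budding. All 4 cultures had thus been stimulated at some stage, and resting and stimulated cells also differed in time and handling. The labels did not say whether replicates were separate animals or cultures, so the tests measure the spread between libraries, which may be technical. In such bulk libraries, a different mix of cells or vesicles and a different amount of RNA in each cannot be told apart.

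A tRNA brings its amino acid to the ribosome and reads the codon through its anticodon. Nucleases such as angiogenin cut mature tRNAs, mostly in the loops, into fragments of the 5′ or the 3′ side, and such fragments are known from cells under stress and from EVs. Arginine has 5 anticodons among the members, namely ACG and CCG and CCT and TCG and TCT, whereas asparagine has only GTT and isoleucine has AAT and TAT. Genes for Ile-TAT carry an intron, and their transcripts have to be spliced before the tRNA can work.

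The text after the colon of a name gives the fragment kind. Among the members, 35 were 3FR_1, 24 were 5FR_1, 4 were 3FR_2, and 5FR_2, 5_half_up and pre-tRNA had 1 each. The labels did not define these kinds, and the leading 5 or 3 is read here as the side of the tRNA. Arginine had 9 features of 5FR_1 and 14 of 3FR_1, asparagine 4 and 12, and isoleucine 11 and 9. RefSeq (GRCm38.p6) lists 53 nuclear tRNA genes with these amino acids. Of the 13 Asn-GTT genes, 6 lie on chromosome 3, and 8 of the isoleucine genes lie on chromosome 13. The only Ile-TAT gene of that annotation spans positions 21896938 to 21897031 of chromosome 13, which makes 94 bases, against 73 bases for each of the 6 Arg-ACG genes. Locus names in the files could not be paired with RefSeq symbols, so no coordinate is given for a single member.

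Sister loci, whose names share the isodecoder number, were not treated as independent, since it is not given how reads that fit several of them were assigned. The 8 loci of Ile-AAT-1 divided their 5FR_1 counts about as evenly as sampling noise allows (mean chi-square per degree of freedom 0.95 over the 24 libraries). The 9 loci of Asn-GTT-3 came near to that for 3FR_1 (1.2). The 3 loci of Arg-ACG-1 differed most, in 5FR_1 (3.86), and no test was made of these values. Counts were therefore also summed over the loci of each anticodon and kind, for all tRNAs, which left 18 summed members. Levels given below are the CPM of these sums, counts scaled to an equal library size after TMM, and folds are log2 values from edgeR's quasi-likelihood fit of them over 3798 features, with standard errors (SE) and Benjamini-Hochberg adjusted p. A change was called at an adjusted p under 0.05. All numbers of loci come from the same fit of the 4408 separate features. Levels of different fragments were not compared with each other, since fragment lengths are unknown.

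Library totals ran from 1290918 to 3231626 counts, of which the members held 1566 to 6300. Single members held 4 to 506 counts in a library, and 23 of the 66 fell below 10 counts in at least 1 library. No pair of libraries was identical. Of 6 lymphocyte miRNAs 5 were listed, with a summed level of 60417 to 269863 CPM in cells and 20832 to 243550 in EVs. The listed members of the erythroid (1 of 3), epithelial (2 of 5) and platelet and endothelial (1 of 1) miRNA lists stayed between 9.68 and 163.3 CPM per list and library, and none of the 3 myeloid, 1 liver or 5 muscle miRNAs was listed. Since no listed feature had fewer than 4 counts in any library, a miRNA not listed may still be present in some groups. The sum of 77 snoRNAs, which are nuclear RNAs, was 8639 to 15686 CPM in cells and 1287 to 3354 in EVs. The part of other cells in the results below was not tested. TMM scaling sets folds against the bulk of features, and the median over all features shifted under library totals by 0.14, 0.44, 0.59 and 0.76 in the EV against cell comparisons of resting, stimulated, DMSO and GW4869 cultures. The same step moved it by 0.82 in cells and 1.12 in EVs for stimulated against resting cultures, and directions that rest on it are named below.

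In every culture the 5′ fragments were the members most often higher in EVs, while on the TMM scale the main 3′ fragments were called lower more often than higher except in stimulated cultures. In resting cultures 25 of the 66 members were higher in EVs and 10 lower, against 18.9% and 15.4% of all features, and the 10 became 6 without resting EV replicate 2. Stimulated cultures gave 31 higher and 5 lower, where the whole table had 27.7% and 25.8%, and the 5 became 2 without stimulated EV replicate 2 and 3 without stimulated cell replicate 1 or 2. DMSO cultures gave 27 and 18 (all features 37% and 28.4%). With library totals the splits were 46 higher and 1 lower in stimulated and 31 and 6 in DMSO cultures. GW4869 cultures gave 15 and 27 (all features 36.2% and 32%), and with library totals this last split turned round to 28 higher and 3 lower. On that scale all 4408 features had 1817 higher and 689 lower in stimulated, 2359 and 794 in DMSO, and 2445 and 821 in GW4869 cultures. The share of members higher in EVs was then above that of all features in stimulated cultures and below it in DMSO and GW4869 cultures. Without GW4869 cell replicate 2 the 15 became 8. Over the 4 cultures, 15 members were higher in EVs in all, 4 were lower in all, 5 were called in none and 1 was called in both directions. The 15 comprised all 11 Ile-AAT 5FR_1 loci, 3 of the 4 Asn-GTT 5FR_1 loci and Arg-TCT-3-1 5FR_1. Sister loci among them are not independent. How many of all features had these patterns was not counted, so the numbers have no background.

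**Figure D1:**
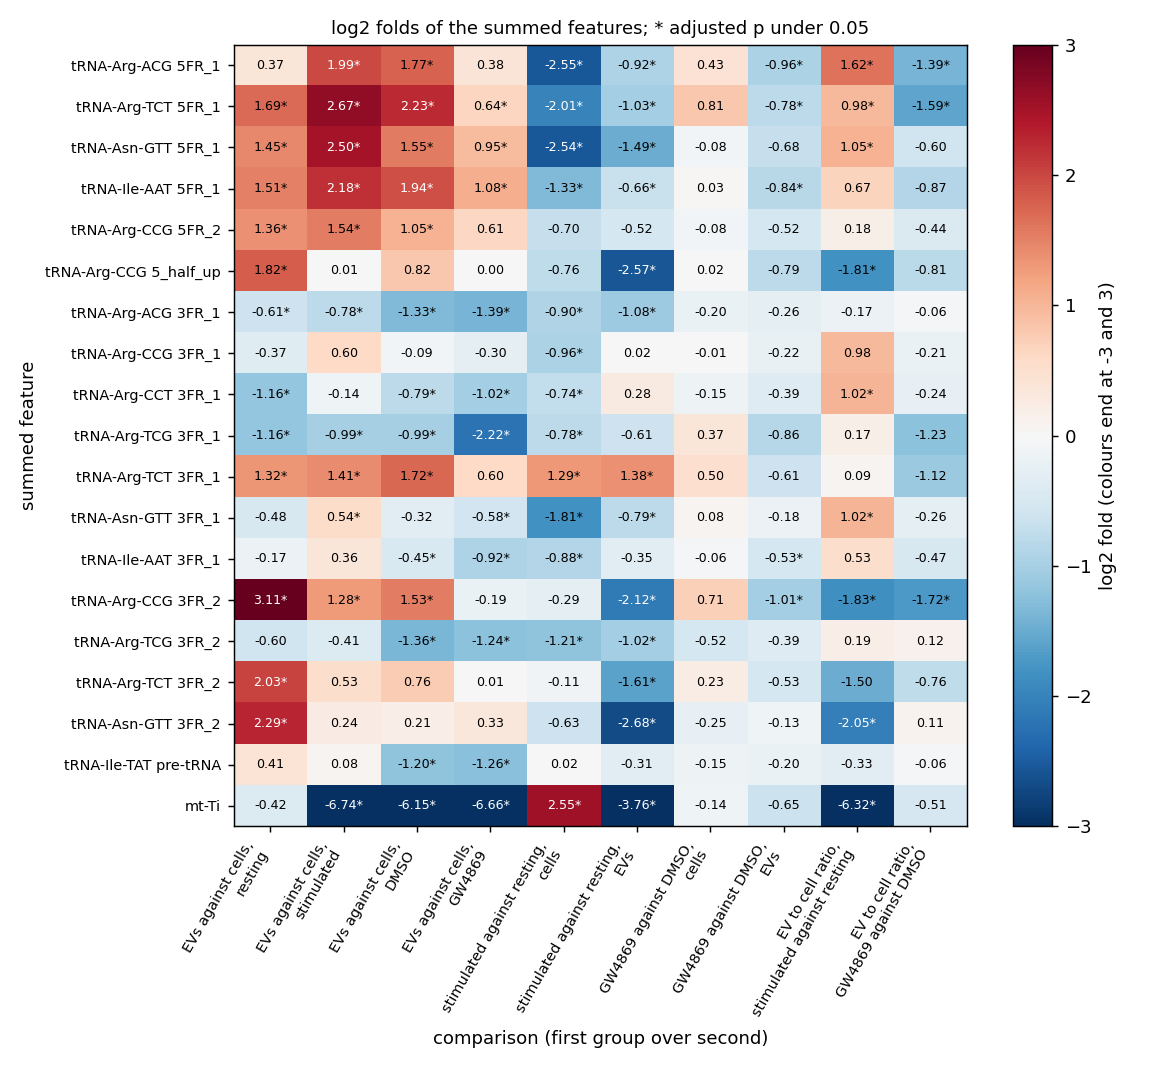
Rows are the 18 summed members and the mitochondrial isoleucine tRNA mt-Ti, columns are the 10 comparisons, and each cell gives the log2 fold with a star at an adjusted p under 0.05 (colours end at -3 and 3). The top 4 rows, the 5FR_1 sums, are positive in all EV against cell columns, and only Arg-ACG lacks a star in the resting and GW4869 columns.

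Fragments of the 5′ side came first. Ile-AAT 5FR_1 stood at 233, 283 and 244 CPM in the resting cell libraries and at 780, 504 and 886 in the resting EV libraries. Stimulated cells held 83.9, 118 and 100 CPM and their EVs 374, 492 and 506. The EV libraries lay above the cell libraries without overlap in all 4 cultures. The log2 folds were 1.51 (SE 0.25, adjusted p 1.84e-05) in resting, 2.18 (SE 0.25, adjusted p 5.99e-08) in stimulated, 1.94 (SE 0.25, adjusted p 3.19e-07) in DMSO and 1.08 (SE 0.24, adjusted p 0.000391) in GW4869 cultures. All 11 loci were higher in EVs in each culture, with folds of 1.25 to 1.83 in resting and 1.73 to 2.53 in stimulated cultures.

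Asn-GTT 5FR_1 had 59.2, 53.3 and 59.5 CPM in resting cells and 205, 122 and 144 in resting EVs. In stimulated cultures the cells held 9.89, 12.7 and 7.10 CPM and the EVs 44.5, 49.4 and 74.0. Again no EV library fell within the range of the cells in any culture. Folds were 1.45 (SE 0.26), 2.50 (SE 0.28), 1.55 (SE 0.28) and 0.95 (SE 0.28) in resting, stimulated, DMSO and GW4869 cultures, with adjusted p of 6.25e-05, 3.98e-08, 3.26e-05 and 0.00377. The call in GW4869 cultures was lost (0.64, adjusted p 0.0694) without GW4869 EV replicate 1.

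Among arginine 5FR_1 sums of resting cultures, Arg-TCT was called and Arg-ACG was not, and the difference between these anticodons was not tested. Arg-TCT 5FR_1 rose from 52.3, 57.5 and 48.2 CPM in resting cells to 170, 138 and 202 in EVs, a log2 fold of 1.69 (SE 0.27, adjusted p 1.19e-05). Arg-ACG 5FR_1 was at 404, 390 and 443 CPM in resting cells and 427, 507 and 660 in EVs. These ranges overlapped, and the fold of 0.37 (SE 0.22, adjusted p 0.242) was not called. In stimulated cultures both were higher in EVs, Arg-TCT by 2.67 (SE 0.28, adjusted p 1.36e-08) and Arg-ACG by 1.99 (SE 0.23, adjusted p 8.56e-08). For Arg-ACG this came with 81.9, 60.4 and 68.6 CPM in cells and 235, 271 and 335 in EVs. DMSO cultures gave 2.23 (SE 0.29) for Arg-TCT and 1.77 (SE 0.24) for Arg-ACG. With GW4869 the folds were 0.64 (SE 0.27, adjusted p 0.0387) and 0.38 (SE 0.23, adjusted p 0.141). The Arg-TCT call there was lost with RLE factors (0.37, adjusted p 0.25), with DESeq2 (0.37, adjusted p 0.261), with the low-count filter (0.42, adjusted p 0.175), with the 12 DMSO and GW4869 libraries alone (0.44, adjusted p 0.242) and without GW4869 EV replicate 2 (0.26, adjusted p 0.473). With library totals Arg-ACG was also called in GW4869 cultures (1.12, adjusted p 0.00014).

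**Figure D2:**
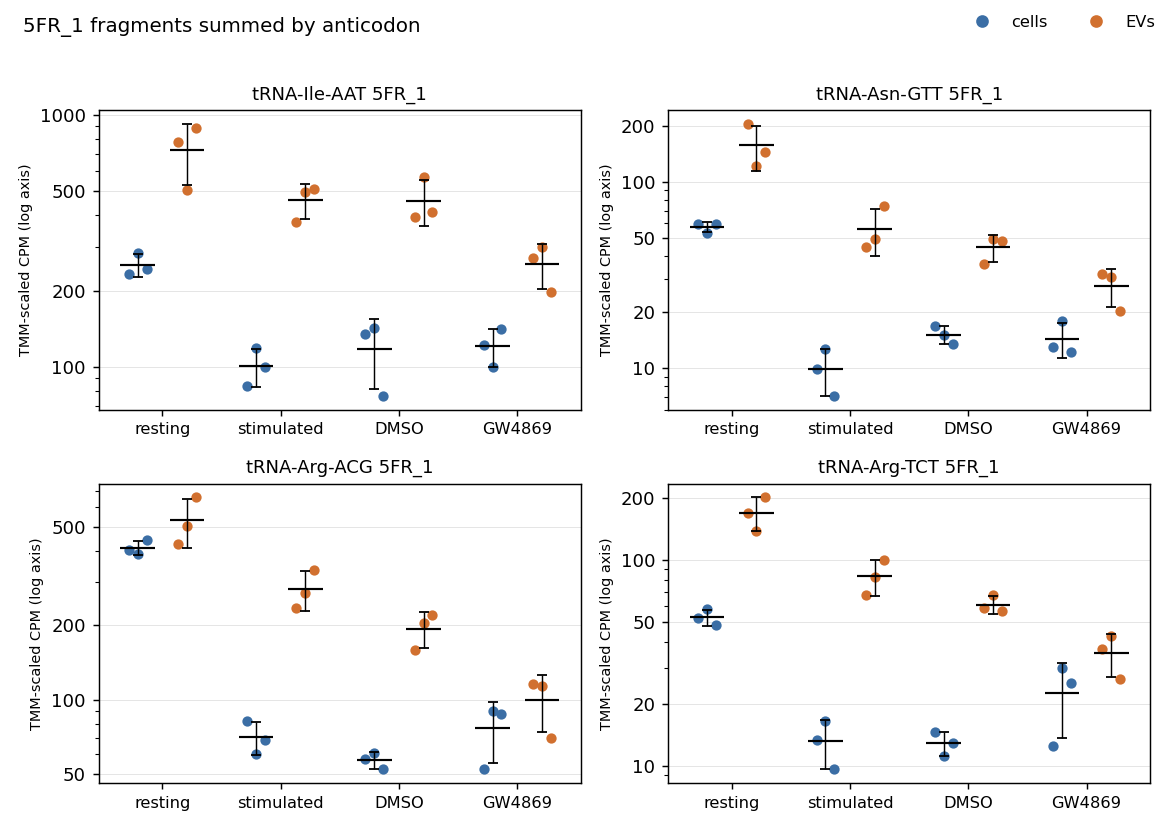
Each point is the TMM-scaled CPM (log axis) of a 5FR_1 sum in 1 library, blue for cells and orange for EVs, with bars for the mean and SD of 3 libraries. EV points lie above cell points in all 4 cultures for Ile-AAT and Asn-GTT, whereas the resting and the GW4869 points of Arg-ACG overlap.

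Counted by locus, 19, 24, 24 and 15 of the 24 5FR_1 members were higher in EVs of resting, stimulated, DMSO and GW4869 cultures, and none was lower in any. Their median folds were 1.48, 2.08, 1.82 and 0.85. With library totals the counts were 20, 24, 24 and 24. The 148 5FR_1 features of other nuclear tRNAs had median folds of 0.85, 2.01, 1.62 and 0.58, with 78, 127, 124 and 70 higher and 9, 0, 9 and 10 lower. Whether the members differed from those was not tested.

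Arg-CCG was represented at the 5′ side by 5FR_2 and 5_half_up, each a single locus (Arg-CCG-3-1). Arg-CCG 5FR_2 was at 21.5, 23.3 and 18.9 CPM in resting cells and 26.7, 55.4 and 79.8 in resting EVs. In stimulated cultures it was at 14.3, 14.6 and 10.3 CPM in cells and 37.9, 36.8 and 39.6 in EVs. EV libraries were above the cell libraries in all 4 cultures, with called folds of 1.36 (SE 0.31), 1.54 (SE 0.30) and 1.05 (SE 0.31) in resting, stimulated and DMSO cultures and 0.61 (SE 0.31, adjusted p 0.0819) in GW4869 cultures. The GW4869 fold was called with library totals (1.34, adjusted p 0.000292) and without GW4869 cell replicate 3 (0.87, adjusted p 0.0349). The DMSO call was lost (0.58, adjusted p 0.119) without DMSO EV replicate 2. Of the 108 other 5FR_2 features, 86 were lower and 1 higher in resting EVs, with a median fold of -1.86. Arg-CCG 5_half_up was higher in EVs of resting cultures (13.7, 27.5 and 12.3 CPM in cells against 55.1, 30.9 and 103 in EVs, fold 1.82, SE 0.46, adjusted p 0.00284), a call that was lost without resting EV replicate 3 (1.24, adjusted p 0.0563). It had folds of 0.01, 0.82 and 0.00 in stimulated, DMSO and GW4869 cultures, none of them called, though the DMSO fold was with library totals (1.34, adjusted p 0.00748).

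The 3FR_1 fragments, the commonest kind on the 3′ side, did not share that pattern. Of the 35 loci, 1, 5, 1 and 0 were higher and 10, 5, 16 and 25 lower in EVs of resting, stimulated, DMSO and GW4869 cultures, with median folds of -0.35, 0.22, -0.61 and -0.93. With library totals the counts became 1, 20, 2 and 2 higher and 7, 1, 4 and 2 lower, so the number of lower calls rests on the scaling. The 172 other 3FR_1 features had 19, 60, 49 and 20 higher and 79, 55, 68 and 84 lower.

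Ile-AAT 3FR_1 lay at 316, 368 and 376 CPM in resting cells and 317, 323 and 304 in resting EVs, with overlapping ranges and a fold of -0.17 (SE 0.17, adjusted p 0.506). In GW4869 cultures it was at 240, 249 and 209 CPM in cells and 127, 128 and 114 in EVs. This was a fold of -0.92 (SE 0.17, adjusted p 3.24e-05) with TMM and -0.18 (adjusted p 0.229) with library totals. In DMSO cultures the fold was -0.45 (SE 0.17, adjusted p 0.019), which turned to 0.08 (adjusted p 0.609) with library totals and was lost without DMSO EV replicate 1 (-0.40, adjusted p 0.0639) and without DMSO EV replicate 3. Asn-GTT 3FR_1 was at 104, 111 and 106 CPM in stimulated cells and 143, 154 and 168 in stimulated EVs, a fold of 0.54 (SE 0.18, adjusted p 0.0174). That call was lost with RLE factors (0.38, adjusted p 0.111), with DESeq2 (0.38, adjusted p 0.0892), with the low-count filter (0.33, adjusted p 0.13) and without GW4869 EV replicate 2 (0.35, adjusted p 0.14). In GW4869 cultures its fold was -0.58 (SE 0.18, adjusted p 0.00687) with TMM and 0.16 (adjusted p 0.412) with library totals.

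Within arginine, called 3FR_1 sums were higher in EVs for Arg-TCT and lower for Arg-ACG, Arg-CCT and Arg-TCG. Arg-TCT 3FR_1 was higher in EVs in 3 cultures, with 8.58, 10 and 6.62 CPM in resting cells, 13.8, 21.1 and 27.7 in resting EVs, 20.5, 18.9 and 22.7 in stimulated cells, and 45.5, 49.4 and 70.6 in stimulated EVs. The folds were 1.32 (SE 0.35, adjusted p 0.00465) in resting, 1.41 (SE 0.28, adjusted p 0.000146) in stimulated and 1.72 (SE 0.31, adjusted p 4.08e-05) in DMSO cultures, and 0.60 (SE 0.30, adjusted p 0.0765) with GW4869. The last was called with library totals (1.33, adjusted p 0.000294) and without GW4869 cell replicate 1 (0.82, adjusted p 0.0368). Arg-TCG 3FR_1 was lower in EVs in all 4 cultures, by -1.16 (SE 0.29), -0.99 (SE 0.28), -0.99 (SE 0.29) and -2.22 (SE 0.31), with adjusted p of 0.00257, 0.00436, 0.00495 and 9.72e-07. In GW4869 cultures it was at 21.8, 29.4 and 17.0 CPM in cells and 4.33, 4.84 and 5.28 in EVs, without overlap. Arg-ACG 3FR_1 was also called lower in all 4, from -0.61 (SE 0.23, adjusted p 0.0442) in resting to -1.39 (SE 0.24, adjusted p 1.32e-05) in GW4869 cultures. Its resting call was lost in 9 of the 24 fits that left out 1 library (up to -0.54, adjusted p 0.153, without resting EV replicate 3), and its stimulated call (-0.78, SE 0.22, adjusted p 0.00501) without stimulated cell replicate 2 (-0.58, adjusted p 0.057). With library totals the calls left for lower levels were those of Arg-TCG in resting, stimulated and GW4869 cultures, of Arg-ACG in DMSO and GW4869 cultures and of Arg-CCT in resting cultures. Arg-CCT 3FR_1 was at 177, 155 and 160 CPM in resting cells and 85.1, 66.7 and 68.6 in resting EVs, a fold of -1.16 (SE 0.21, adjusted p 6.93e-05). In stimulated cultures its ranges overlapped (-0.14, SE 0.20, adjusted p 0.584).

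**Figure D3:**
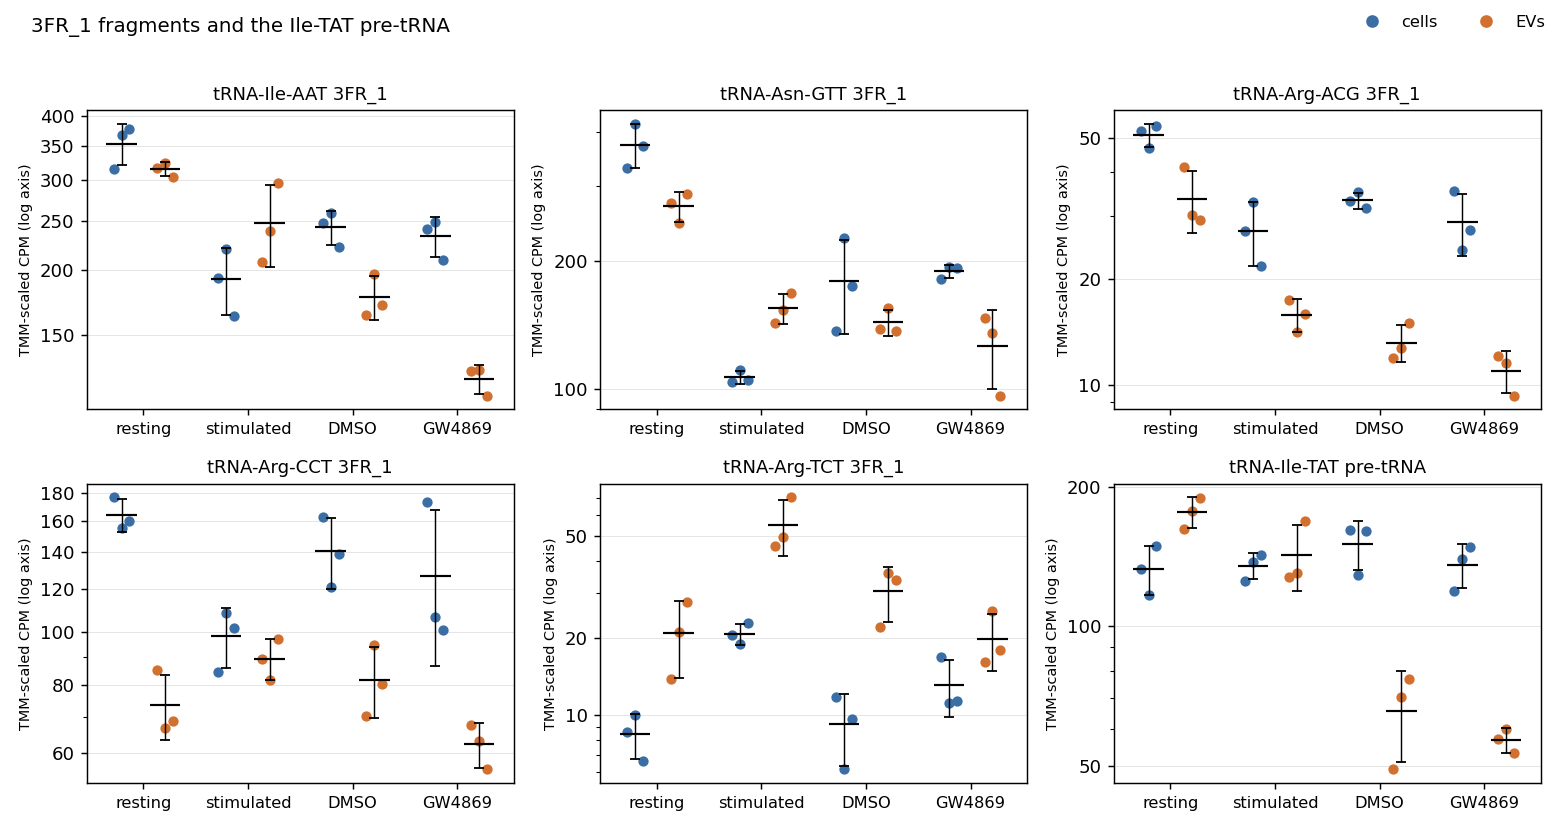
TMM-scaled CPM (log axis) of the 3FR_1 sums of 5 anticodons and of the Ile-TAT pre-tRNA in each library, blue for cells and orange for EVs, with bars for the mean and SD of 3 libraries. The EV points of Arg-TCT lie above the cell points in resting, stimulated and DMSO cultures, those of Arg-ACG lie below in all 4, and the pre-tRNA is below in DMSO and GW4869 cultures.

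The 3FR_2 fragments were highest in resting EVs for 3 of the 4 anticodons. Arg-CCG 3FR_2 was at 7.72, 5.84 and 12.3 CPM in resting cells and 80.3, 59.6 and 81.4 in resting EVs. Asn-GTT 3FR_2 was at 30.9, 33.3 and 34.97 CPM in resting cells and 156, 162 and 168 in resting EVs. Resting EVs held 55.1, 54.7 and 42.6 CPM of Arg-TCT 3FR_2 against 5.15, 13.3 and 18.9 in resting cells. The resting EV libraries thus stood above the cells without overlap for each of the 3, with log2 folds of 3.11 (SE 0.33, adjusted p 3.51e-08), 2.29 (SE 0.29, adjusted p 3.97e-07) and 2.03 (SE 0.43, adjusted p 0.000541). In stimulated cultures the same sums had 1.28 (SE 0.31, adjusted p 0.00137), 0.24 (SE 0.28, adjusted p 0.497) and 0.53 (SE 0.40, adjusted p 0.281). Asn-GTT 3FR_2 then stood at 28.7, 10.4 and 24.2 CPM in stimulated cells and 28.6, 22.6 and 24.2 in stimulated EVs, which overlapped. The exception was Arg-TCG 3FR_2, with folds from -0.41 to -1.36 in the 4 cultures, called in DMSO (-1.36, SE 0.29, adjusted p 0.000225) and GW4869 (-1.24, SE 0.30, adjusted p 0.000831) cultures. The GW4869 call was lost with library totals (-0.51, adjusted p 0.141). The 54 other 3FR_2 features had 44 higher and 8 lower in resting EVs with a median fold of 2.97. Counts behind these sums were low, down to 5 for Arg-TCT and 7 for Arg-CCG in a library.

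**Figure D4:**
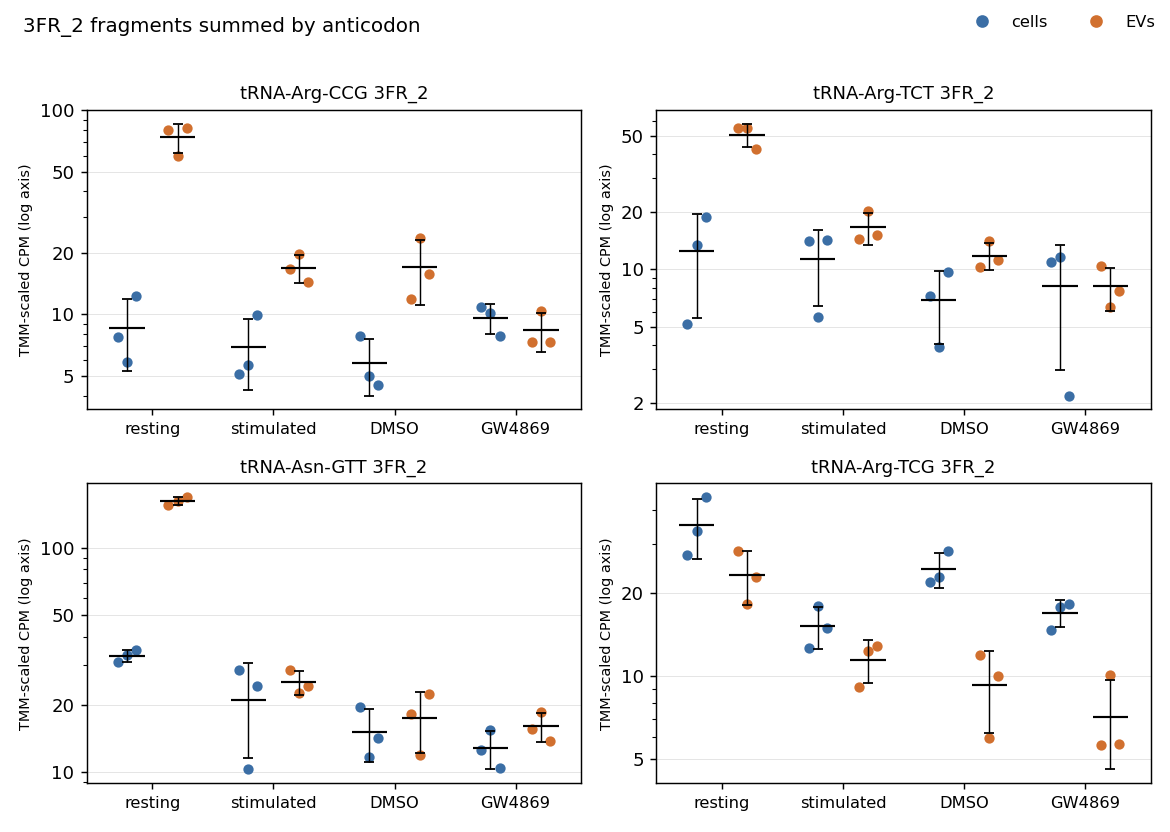
TMM-scaled CPM (log axis) of the 4 sums of 3FR_2 per library, blue for cells and orange for EVs, with bars for the mean and SD of 3 libraries. For Arg-CCG, Arg-TCT and Asn-GTT the resting EV points stand above all other groups, while Arg-TCG has its highest point in a resting cell library.

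Ile-TAT appeared only as pre-tRNA, at locus Ile-TAT-2-1. It was at 133, 117 and 149 CPM in resting cells and 162, 178 and 189 in resting EVs, and at 125, 138 and 143 in stimulated cells and 128, 131 and 169 in stimulated EVs. These gave folds of 0.41 (SE 0.19, adjusted p 0.106) and 0.08 (SE 0.18, adjusted p 0.746), neither of them called, though the first was with library totals (0.61, adjusted p 0.0148). DMSO cultures had 161, 129 and 161 CPM in cells and 49.1, 70.4 and 77.1 in EVs, and GW4869 cultures 119, 140 and 148 in cells and 57.2, 59.9 and 53.2 in EVs. Both folds were lower without overlap, -1.20 (SE 0.19, adjusted p 5.40e-06) and -1.26 (SE 0.19, adjusted p 2.28e-06), also with library totals (-0.67 and -0.52). DMSO and stimulated cultures stem from separate sets of libraries and were not compared by a test. The only other pre-tRNA feature was also called lower in EVs of DMSO (-3.09) and GW4869 (-2.77) cultures, and of resting ones (-2.34). In stimulated cultures its fold of -0.80 was not called.

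The mitochondrial counterpart mt-Ti, which serves translation inside mitochondria, is not a member and went another way. It was at 69.5, 112 and 85.1 CPM in resting cells and 51.9, 61.7 and 84.1 in resting EVs, but at 436, 680 and 451 in stimulated cells and 5.06, 3.53 and 6.04 in stimulated EVs. Its fold was -0.42 (SE 0.23, adjusted p 0.182) in resting and -6.74 (SE 0.29, adjusted p 3.40e-15) in stimulated cultures, and the difference between these was -6.32 (SE 0.35, adjusted p 2.27e-12). DMSO and GW4869 cultures gave -6.15 and -6.66. The mitochondrial asparagine and arginine tRNAs were not analysed here.

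Shares of counts do not depend on the scaling between libraries, but they do depend on how many sister loci are listed. They are given over all listed loci first, and then with 1 locus per anticodon and kind, the one with the highest mean CPM. Of the isoleucine counts, 34.3% ± 2.6 (SD, n = 3) fell in 5FR_1 in resting cells and 58.8% ± 7.5 in resting EVs, and 23.5% ± 2.3 in stimulated cells and 54.0% ± 2.8 in stimulated EVs. Arginine had 58.1% ± 1.8 of its counts in the kinds named with 5 in resting cells and 70.8% ± 5.2 in resting EVs, then 32.2% ± 3.7 and 61.8% ± 2.2 in stimulated cells and EVs. Asparagine had 12.5% ± 1.8 and 26.5% ± 5.1 in resting and 7.21% ± 2.2 and 23.4% ± 3.8 in stimulated cells and EVs. In DMSO cultures the shares of arginine, asparagine and isoleucine were 27.8%, 7.43% and 22.8% in cells and 61.5%, 21.6% and 65.0% in EVs. With GW4869 they were 34.2%, 6.60% and 24.7% in cells and 54.5%, 16.2% and 58.3% in EVs. Over all loci, the EV libraries lay above the cell libraries for all 3 amino acids in each of the 4 cultures. With 1 locus per anticodon and kind this held in all 4 cultures for isoleucine alone, whose shares fell to 12.4% ± 3.4 in resting cells and 23.2% ± 3.7 in resting EVs, and 5.72% ± 0.43 and 20.7% ± 3.1 in stimulated ones. Arginine then had 49.1% ± 5.4 and 56.7% ± 7.2 in resting and 34.9% ± 14 and 49.6% ± 6.4 in GW4869 cells and EVs, which overlapped, and 27.3% ± 4.6 and 50.2% ± 1.2 in stimulated ones, which did not. Asparagine then had 19.6% ± 2.7 in resting cells and 18.4% ± 4.1 in resting EVs, which also overlapped, but 8.45% ± 7.4 and 27.1% ± 8.6 in stimulated ones. The order of the amino acids changed as well, with asparagine lowest over all loci and isoleucine lowest in the 4 cell groups with 1 locus. The isoleucine counts include the Ile-TAT pre-tRNA. In resting cells it held 15.2% to 19.5% of them over all loci and 60.3% to 71.1% with 1 locus. Its weight thus enters the lower isoleucine shares and this order, apart from the balance of 5′ and 3′ fragments. The other nuclear tRNAs had 42.1% in resting cells, 49.9% in resting EVs, 34.5% in stimulated cells and 61.6% in stimulated EVs. The members together made up 0.0941% to 0.111% of all counts in the cell groups and 0.157% to 0.232% in the EV groups, as group means.

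**Figure D5:**
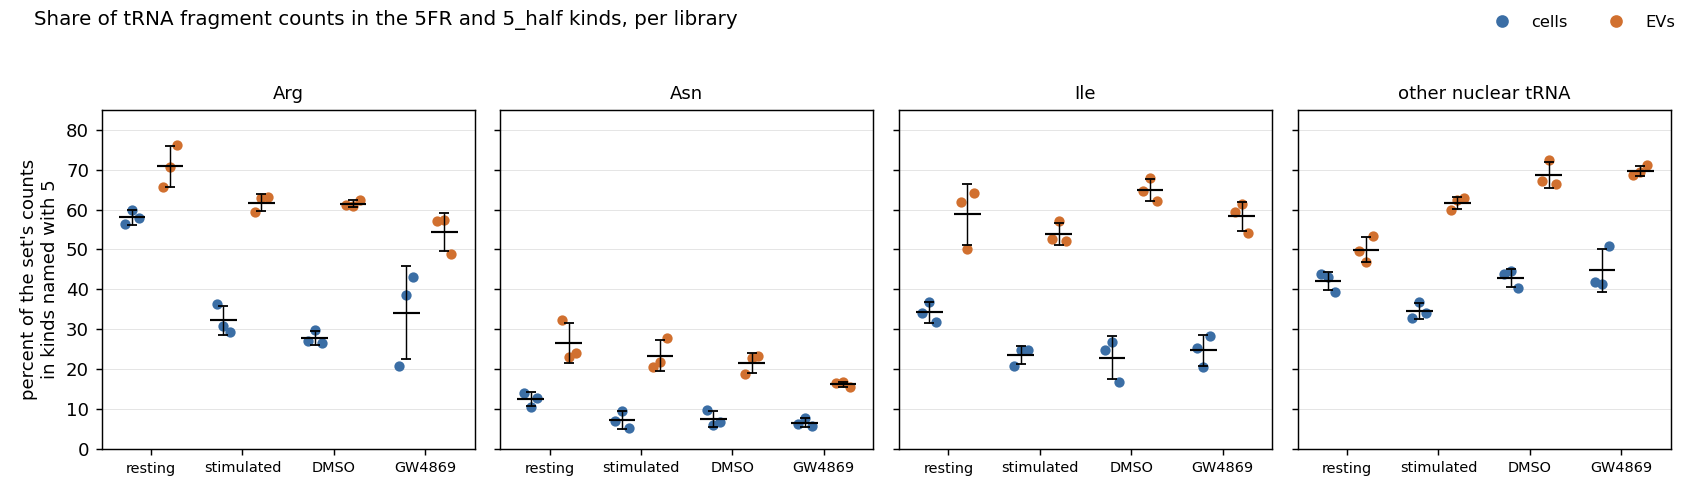
Percent of each set's counts in the kinds named with 5 (vertical axis, from 0) for arginine, asparagine, isoleucine and all other nuclear tRNAs, over all listed loci, 1 point per library, blue for cells and orange for EVs, with bars for the mean and SD of 3 libraries. EV points are above cell points of the same culture in every panel, which with 1 locus per anticodon and kind no longer held for arginine in resting and GW4869 cultures or for asparagine in resting cultures.

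The ratio of 5FR_1 to 3FR_1 counts within an anticodon is likewise free of scaling, and its level likewise depends on the loci listed for each kind. For Ile-AAT it was 0.719 ± 0.063 (SD, n = 3) in resting cells and 2.31 ± 0.69 in resting EVs, and 0.528 ± 0.090 and 1.86 ± 0.18 in stimulated cells and EVs. For Asn-GTT it was 0.155 ± 0.026 and 0.583 ± 0.14 in resting cells and EVs, and 0.0924 ± 0.024 and 0.357 ± 0.071 in stimulated ones. Arg-ACG had 2.66 ± 0.73 in stimulated cells against 17.9 ± 4.0 in stimulated EVs, after 8.10 ± 0.34 and 16.6 ± 6.1 in resting cultures. All EV libraries of these 3 anticodons were above the cell libraries of their culture. For Arg-TCT the ratio fell from 6.38 ± 0.81 in resting cells to 0.649 ± 0.23 in stimulated cells, and from 8.74 ± 3.2 in resting EVs to 1.52 ± 0.13 in stimulated EVs, while its cell and EV libraries overlapped in resting, DMSO and GW4869 cultures. No test was made of these ratios.

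Arginine anticodons made up different shares of the arginine counts in cells and EVs. Arg-CCT held 18.9% ± 1.3 (SD, n = 3) in resting cells and 6.56% ± 1.6 in resting EVs, and 29.5% ± 3.1 and 13.5% ± 1.5 in stimulated ones. Arg-TCG went from 8.38% ± 1.1 to 3.51% ± 0.41 in resting and from 11.1% ± 1.5 to 3.38% ± 0.18 in stimulated cultures. Arg-TCT went the other way, from 8.49% ± 1.1 to 21.2% ± 1.7 in resting and from 13.6% ± 1.5 to 23.2% ± 1.4 in stimulated cultures. Arg-ACG had 53.3% ± 1.5 in resting cells and 49.1% ± 3.4 in resting EVs, and 29.3% ± 3.5 and 44.3% ± 1.4 in stimulated ones. With 1 locus per anticodon and kind, Arg-ACG had 32.0% ± 1.8 in resting cells and 21.4% ± 1.5 in resting EVs, without overlap, and 12.5% ± 2.7 and 21.2% ± 0.81 in stimulated ones. Arg-CCT and Arg-TCG remained lower and Arg-TCT higher in EVs without overlap in all 4 cultures under that choice. Arg-CCT then stood at 9.36% ± 2.7 and 2.94% ± 0.70 in resting, and Arg-TCG at 19.2% ± 3.6 and 6.31% ± 1.2, with Arg-TCT at 17.4% ± 3.3 and 29.9% ± 2.6. These shares also reflect which kinds were listed, since Arg-CCT and Arg-TCG had no 5′ kind among the members.

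The comparison of stimulated with resting cells asks how the fragments change with activation. On the TMM scale 50 of the 66 members were lower and 1 higher in stimulated cells, against 23.1% and 23% of all features. Other nuclear tRNAs had 461 of 714 lower and 40 higher, with a median fold of -1.05 beside -1.06 for the members. In EVs 39 members were lower and 1 higher (25.2% and 28.9% of all features). With library totals the counts were 21 lower and 3 higher in cells, and 3 lower and 23 higher in EVs. Of all 4408 features, 342 were then lower and 1991 higher in cells, and 426 lower and 2880 higher in EVs. The direction in EVs thus reverses with the scaling, as the whole table shifts. On that scale a smaller share of the members than of all features was higher in EVs. The 39 lower calls in EVs became 25 without resting EV replicate 3 and 24 without stimulated EV replicate 1.

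Relative to the bulk of features, 3 of the 4 sums of 5FR_1 had the lowest folds in cells. Arg-ACG 5FR_1 went from 404, 390 and 443 CPM in resting to 81.9, 60.4 and 68.6 in stimulated cells, a fold of -2.55 (SE 0.24, adjusted p 2.50e-09) that was -1.58 with library totals. Asn-GTT 5FR_1 fell by 2.54 (SE 0.29, adjusted p 6.11e-08), or 1.59 with library totals, and Arg-TCT 5FR_1 by 2.01 (SE 0.29, adjusted p 2.20e-06), or 1.06. Ile-AAT 5FR_1 had -1.33 (SE 0.25, adjusted p 7.61e-05) with TMM, and with library totals -0.37 (adjusted p 0.124). Asn-GTT 3FR_1 went from 330, 419 and 372 CPM to 104, 111 and 106, a fold of -1.81 (SE 0.19, adjusted p 1.68e-08), or -0.84 with library totals. For Ile-AAT, Arg-ACG, Arg-CCT and Arg-TCG 3FR_1, folds of -0.88, -0.90, -0.74 and -0.78 turned to 0.08, 0.05, 0.22 and 0.18 with library totals. The Arg-TCG call was also lost without stimulated cell replicate 1 (-0.72, adjusted p 0.0728). The Ile-TAT pre-tRNA had 0.02 (SE 0.18, adjusted p 0.936) with TMM and 0.99 with library totals.

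A single summed member was higher in stimulated than in resting cultures on both scales. Arg-TCT 3FR_1 rose by 1.29 (SE 0.34, adjusted p 0.00309) in cells and 1.38 (SE 0.29, adjusted p 0.000235) in EVs, and by 2.26 and 2.48 with library totals. It is the locus Arg-TCT-2-1, whose 5FR_1 counts took the opposite direction in cells together with the other Arg-TCT loci. DMSO and GW4869 cells, also stimulated for 3 days, had mean Arg-TCT 3FR_1 levels of 9.19 and 13.1 CPM. Resting cells had 8.40 and stimulated cells 20.7. The DMSO cell libraries, at 6.13 to 11.8 CPM, overlapped the resting cells. EV means were 20.8 in resting, 55.2 in stimulated, 30.4 in DMSO and 19.7 in GW4869 cultures. No test compared DMSO or GW4869 cultures with resting ones.

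In EVs the lowest folds between resting and stimulated cultures, on the TMM scale, were those of 3 of the 4 sums of 3FR_2 and of Arg-CCG 5_half_up. Asn-GTT 3FR_2 went from 156, 162 and 168 to 28.6, 22.6 and 24.2 CPM, a fold of -2.68 (SE 0.28, adjusted p 1.51e-08). Arg-CCG 5_half_up had -2.57 (SE 0.44, adjusted p 2.56e-05) and Arg-CCG 3FR_2 -2.12 (SE 0.28, adjusted p 7.78e-07). These 3 stayed called with library totals, at -1.56, -1.43 and -0.99. Arg-TCT 3FR_2 had -1.61 (SE 0.38, adjusted p 0.00104), which was not called with library totals (-0.50, adjusted p 0.284). The fourth of them, Arg-TCG 3FR_2, had -1.02 (SE 0.29, adjusted p 0.00398), which turned to 0.09 with library totals. All 4 member loci and all 54 other features of 3FR_2 were lower on the TMM scale. Asn-GTT 5FR_1 had -1.49 (SE 0.25, adjusted p 1.78e-05) in EVs, and -0.40 (adjusted p 0.129) with library totals. The other 5FR_1 folds in EVs, -0.92 for Arg-ACG, -1.03 for Arg-TCT and -0.66 for Ile-AAT, turned to 0.18, 0.08 and 0.46 with library totals. The Ile-AAT call (adjusted p 0.021) was also lost without resting EV replicate 3 and without stimulated EV replicate 1 (-0.54, adjusted p 0.101), and its ranges overlapped.

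The EV to cell ratio was compared between stimulated and resting cultures with a difference of both folds. Of the 66 members 16 had a larger ratio in stimulated cultures and 4 a smaller one, against 15.2% and 20.7% of all features. The 16 fell to 8 without resting EV replicate 2, to 9 without stimulated cell replicate 1 and to 10 without resting cell replicate 2, and the 4 to 2 without resting cell replicate 1 or stimulated EV replicate 1. Among sums, the ratio of Arg-ACG 5FR_1 was larger in stimulated cultures by 1.62 (SE 0.32, adjusted p 0.00033), that of Arg-CCT 3FR_1 by 1.02 (SE 0.29, adjusted p 0.00793) and that of Asn-GTT 3FR_1 by 1.02 (SE 0.26, adjusted p 0.00383). The ratio was smaller for Asn-GTT 3FR_2 by -2.05 (SE 0.40, adjusted p 0.000293) and for Arg-CCG 3FR_2 by -1.83 (SE 0.46, adjusted p 0.00372). Ile-AAT 5FR_1, higher in EVs of both cultures, had 0.67 (SE 0.34, adjusted p 0.136), which was called with library totals (0.83, adjusted p 0.0302). Differences of 1.05 for Asn-GTT 5FR_1 (adjusted p 0.0327) and 0.98 for Arg-TCT 5FR_1 (adjusted p 0.0475) were lost with RLE factors (0.94 and 0.86, adjusted p 0.0628 and 0.0928), with DESeq2 and with the low-count filter. They were also lost without stimulated EV replicate 3 (0.80, adjusted p 0.0961) and stimulated cell replicate 3 (0.79, adjusted p 0.136), respectively, and Arg-TCT with a replicate block (0.97, adjusted p 0.0531). The 3 loci of 3FR_2 called smaller stood beside 45 of 54 other 3FR_2 features.

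GW4869 was compared with its vehicle to ask whether the inhibitor changes what cells and EVs hold. In cells no member was called by edgeR, against 2.88% of all features higher and 0.113% lower, and DESeq2 gave 0 as well. Unadjusted p under 0.05 were found for 2 members and for 572 of all 4408 features, and leaving out GW4869 cell replicate 1 gave 1 higher call. In EVs 15 members were lower and none higher with GW4869, against 9.69% and 7.89% of all features. Of the 15, 12 were 5FR_1 loci, and 102 of the 714 other nuclear tRNA features were lower, with none higher. The 15 fell to 0 without GW4869 EV replicate 3, to 3 without DMSO EV replicate 2, to 5 without GW4869 EV replicate 1 and to 8 without GW4869 EV replicate 2. With library totals or with the 12 DMSO and GW4869 libraries alone 2 calls were left.

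Arg-ACG 5FR_1 was at 158, 204 and 219 CPM in DMSO EVs and 116, 114 and 69.8 in GW4869 EVs, which did not overlap. Its fold was -0.96 (SE 0.23, adjusted p 0.00682), which kept its call in each fit that left out 1 library and lost it with library totals (-0.63, adjusted p 0.0542). Ile-AAT 5FR_1 was at 392, 565 and 410 CPM in DMSO EVs and 270, 298 and 198 in GW4869 EVs, a fold of -0.84 (SE 0.24, adjusted p 0.0204). Folds of -0.78 (SE 0.26, adjusted p 0.0402) for Arg-TCT 5FR_1, -0.53 (SE 0.17, adjusted p 0.0324) for Ile-AAT 3FR_1 and -1.01 (SE 0.31, adjusted p 0.0284) for Arg-CCG 3FR_2 completed the called sums. These 4 were lost without GW4869 EV replicate 3, without DMSO EV replicate 2 and with library totals. Their adjusted p without DMSO EV replicate 2 were 0.139, 0.14, 0.155 and 0.204. All 4 were also lost with the DMSO and GW4869 libraries alone, at adjusted p of 0.0617, 0.089, 0.0999 and 0.0586. The Arg-CCG 3FR_2 call was lost without GW4869 EV replicate 1 as well. Asn-GTT 5FR_1 had -0.68 (SE 0.26, adjusted p 0.0662), and was called with DESeq2 (-0.78, adjusted p 0.0311).

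The EV to cell ratio was smaller with GW4869 than with DMSO for 7 members and larger for none, against 5.83% and 1.75% of all features. Arg-TCT 5FR_1 differed by -1.59 (SE 0.39, adjusted p 0.0145) and Arg-ACG 5FR_1 by -1.39 (SE 0.33, adjusted p 0.01). The Arg-CCG 3FR_2 difference was -1.72 (SE 0.48, adjusted p 0.0273). It was lost with library totals (-1.51, adjusted p 0.07) and in 8 of the 24 fits that left out 1 library, up to -1.31 (adjusted p 0.119) without DMSO EV replicate 2. The other 7 left out GW4869 EV replicate 3, GW4869 cell replicate 1 or 2, DMSO cell replicate 2 or 3, resting cell replicate 1 and stimulated cell replicate 2. None of the 3 was called in a fit of the 12 DMSO and GW4869 libraries alone (adjusted p 0.0962, 0.0963 and 0.104). Arg-ACG also lost its call without DMSO cell replicate 3 (-1.21, adjusted p 0.0504), and Arg-TCT without DMSO cell replicate 2, DMSO cell replicate 3 or GW4869 cell replicate 2 (-1.34, adjusted p 0.0512). The cell libraries moved in the other direction, with Arg-TCT 5FR_1 at 14.6, 11.2 and 12.9 CPM in DMSO cells and 12.5, 29.9 and 25.2 in GW4869 cells. That difference in cells was 0.81 (SE 0.30, adjusted p 0.182) and was not called, whereas it was with library totals (0.95, adjusted p 0.0468). The 7 members became 1 without GW4869 EV replicate 3 or GW4869 cell replicate 2, 2 without DMSO cell replicate 3, 3 without DMSO EV replicate 2, DMSO cell replicate 1 or 2, or GW4869 EV replicate 1, and 4 without GW4869 EV replicate 2, GW4869 cell replicate 3 or stimulated cell replicate 3.

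The summed members gave smaller counts over the same comparisons. In EVs against cells, 9 of 18 sums were higher and 3 lower in resting cultures (28.9% of all summed features called), 8 and 2 in stimulated cultures (50.9%), 7 and 6 in DMSO cultures (65.8%), and 3 and 7 in GW4869 cultures (70.2%). Stimulated against resting gave 1 higher and 11 lower in cells (41.7%) and the same numbers in EVs (56.7%). GW4869 against DMSO gave none in cells (3.34%) and 5 lower in EVs (17.9%). The ratio comparisons gave 5 higher and 3 lower for stimulated against resting cultures (33%) and 3 lower for GW4869 against DMSO (8.19%).

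Single loci at the ends of the range belonged mostly to arginine. Arg-CCG-3-1 3FR_2 had the highest called fold of EVs against cells in resting cultures (3.16, SE 0.33), followed by Arg-TCT-1-1 5FR_1 (2.52, SE 0.40). In stimulated cultures the highest were Asn-GTT-3-9 5FR_1 (2.82, SE 0.43) and Arg-TCT-2-1 5FR_1 (2.67, SE 0.34). In DMSO cultures they were Arg-TCT-2-1 5FR_1 (2.63, SE 0.37) and Ile-AAT-3-1 5FR_1 (2.24, SE 0.33), and with GW4869 Asn-GTT-3-9 5FR_1 (1.56, SE 0.44) and Ile-AAT-1-7 5FR_1 (1.47, SE 0.34). Arg-TCG-1-1 3FR_1 had the lowest called fold in resting (-1.40, SE 0.30), stimulated (-1.61, SE 0.29) and GW4869 (-3.01, SE 0.35) cultures, and Arg-ACG-2-1 3FR_1 in DMSO cultures (-1.74, SE 0.39). Arg-TCG-1-1 was at only 2.19, 1.85 and 2.04 CPM in GW4869 EVs, and Arg-ACG-2-1 at 2.39, 1.77 and 3.15 in DMSO EVs. Such levels lie close to the smallest count in the files, 4, which limits these folds. The 4 members lower in EVs of all cultures were the 3FR_1 features of Arg-ACG-3-1, Arg-ACG-3-2, Arg-CCG-2-1 and Arg-TCG-1-1. At Arg-CCG the loci differed, since Arg-CCG-3-1 3FR_1 was called higher in stimulated EVs and in no other culture.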

How the data were processed

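Small RNA was sequenced from 24 libraries, 3 in each of 8 groups. The authors deposited 1 table of raw read counts per library, and the submitters' processing notes name Bowtie, GRCm38 and mm10. How reads that fit several tRNA genes were assigned is not given in the sources used here. Each file held 4441 lines, of which 33 repeated lines were dropped, and the smallest count was 4, so a feature below that level is not seen. Groups and names were taken from the labels and no library was left out.

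Counts were scaled with TMM and fitted over all 24 libraries with edgeR 4.0.16 (R 4.3.3) by glmQLFit and glmQLFTest, with Benjamini-Hochberg adjustment over all features of a comparison. The filter filterByExpr (minimum count 10) removed 0 features. The script was first tested on simulated data. A further fit used counts summed by anticodon and kind (3798 features). An exact permutation test of 3 libraries against 3 cannot go below 0.1. Alternatives were library totals, RLE factors, a mean count of at least 20, DESeq2 1.42.0, a replicate block, the 12 libraries of 1 experiment, and leaving out each library. Loci named singly had the highest and lowest called folds of a comparison. The members and lists were chosen with earlier results of these data known. Intervals cover counting error and spread between libraries only.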

Additional observations from a re-analysis of the deposited data

Results flagged for a closer look

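Members were set apart here where a test of the difference itself showed that the EV to cell ratio differed between cultures. Between stimulated and resting cultures the log2 ratio differed by 1.62 for Arg-ACG 5FR_1, 1.02 for Arg-CCT 3FR_1, 1.02 for Asn-GTT 3FR_1, 1.05 for Asn-GTT 5FR_1 and 0.98 for Arg-TCT 5FR_1, all larger in stimulated cultures. The calls of Asn-GTT 5FR_1 and Arg-TCT 5FR_1 were lost with RLE factors (adjusted p 0.0628 and 0.0928), with DESeq2 and with the low-count filter. Leaving out 1 library also ended each (adjusted p 0.0961 and 0.136), and a replicate block ended that of Arg-TCT (adjusted p 0.0531). The ratio was smaller in stimulated cultures for Asn-GTT 3FR_2 (-2.05), Arg-CCG 3FR_2 (-1.83) and Arg-CCG 5_half_up (-1.81). The last call was lost with library totals (-1.61, adjusted p 0.0515) and in 6 of the 24 fits that left out 1 library, up to -1.22 (adjusted p 0.157) without resting EV replicate 3. The other 5 left out resting cell replicate 1 or 3, stimulated EV replicate 1 or 3, or stimulated cell replicate 2. At single loci the differences were 1.99 for Arg-ACG-1-3 5FR_1, 1.58 for Arg-ACG-2-1 5FR_1, -2.20 for Asn-GTT-3-2 3FR_2 and -1.98 for Arg-CCG-3-1 3FR_2. The loci repeat the sums of their anticodon and are no separate evidence.

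Between GW4869 and DMSO cultures the ratio differed by -1.39 for Arg-ACG 5FR_1, -1.72 for Arg-CCG 3FR_2 and -1.59 for Arg-TCT 5FR_1. All 3 calls were lost with the 12 DMSO and GW4869 libraries alone (adjusted p 0.0963, 0.104 and 0.0962), and that of Arg-CCG 3FR_2 also with library totals (-1.51, adjusted p 0.07) and in 8 of the 24 fits that left out 1 library. Arg-ACG 5FR_1 was also lost without DMSO cell replicate 3 (adjusted p 0.0504). Arg-TCT 5FR_1 was lost without DMSO cell replicate 2 or 3 or GW4869 cell replicate 2 (up to adjusted p 0.0512). The loci Arg-TCT-2-1 5FR_1 (-2.40) and Arg-ACG-3-2 5FR_1 (-1.75) differed in the same direction. They are parts of these sums and no separate evidence, and no member locus was called with the 12 libraries alone.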

How the results depend on the processing

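Scaling had the widest effect. With library totals the calls higher and lower in EVs were 28 and 3 in GW4869 cultures, with 1 lower in stimulated and 6 lower in DMSO cultures. All features had 2445 higher and 821 lower in GW4869, 689 lower in stimulated and 794 lower in DMSO cultures. Stimulated against resting then gave 3 higher and 21 lower in cells and 23 higher and 3 lower in EVs. The whole table had 1991 higher and 342 lower in cells and 2880 and 426 in EVs. GW4869 against DMSO gave 1 higher in cells and 2 lower in EVs, and the ratio comparisons 25 higher (stimulated) and 2 lower (GW4869). Over all features the matching counts were 215 and 109, and 899 and 127 in the ratios.

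Among called folds of the sums and of the loci checked singly, directions reversed with library totals only. The loci checked had the highest or lowest called folds of a comparison, or the highest mean CPM of their anticodon and kind. The lists of loci are therefore not complete. Over all 66 members, stimulated against resting EVs went from 1 higher and 39 lower to 23 and 3. In stimulated against resting EVs these were the sums Arg-ACG 3FR_1 (0.04), Arg-ACG 5FR_1 (0.18), Arg-TCG 3FR_2 (0.09), Arg-TCT 5FR_1 (0.08), Asn-GTT 3FR_1 (0.32) and Ile-AAT 5FR_1 (0.46). Of the loci checked, those that turned there were Arg-ACG-1-3 5FR_1 (0.34), Arg-ACG-2-1 5FR_1 (0.10), Arg-ACG-3-2 5FR_1 (0.12), Arg-TCG-1-1 3FR_1 (0.08), Arg-TCG-4-1 3FR_2 (0.09), Arg-TCT-1-1 5FR_1 (0.11), Arg-TCT-2-1 5FR_1 (0.17) and Asn-GTT-3-4 3FR_1 (0.29). In cells they were Arg-ACG 3FR_1 (0.05), Arg-CCT 3FR_1 (0.22), Arg-TCG 3FR_1 (0.18), Ile-AAT 3FR_1 (0.08), Arg-CCT-2-2 3FR_1 (0.05) and Ile-AAT-1-3 3FR_1 (0.14). In EVs against cells they were Asn-GTT 3FR_1 (0.16) and Ile-AAT-1-3 3FR_1 (0.16) with GW4869 and Ile-AAT 3FR_1 (0.08) with DMSO.

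A mean count of at least 20 left 1 lower call in EVs against cells of stimulated cultures. Loci below that count were taken out of this fit and not tested. The 12 DMSO and GW4869 libraries alone left 2 lower calls in GW4869 EVs and 0 in the ratio, where fewer samples enter. Summing loci gave 9 higher and 3 lower (resting), 8 and 2 (stimulated), 7 and 6 (DMSO), 3 and 7 (GW4869) in EVs against cells, 11 lower in stimulated cells and 11 in EVs, 5 lower in GW4869 EVs, and 5 higher and 3 lower in the ratios, with fewer features to call.

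Leaving out each library in turn gave 24 to 26 higher and 6 to 10 lower calls in resting, 28 to 31 and 2 to 5 in stimulated, 26 to 27 and 15 to 20 in DMSO, and 8 to 19 and 20 to 27 in GW4869 EVs against cells. Stimulated against resting gave 40 to 51 lower in cells and 24 to 43 in EVs, with 1 higher in each. GW4869 against DMSO gave 0 to 1 higher in cells and 0 to 20 lower in EVs. The ratios gave 8 to 17 higher and 2 to 4 lower (stimulated) and 1 to 8 lower (GW4869). The lowest came without resting EV replicate 2 (6), stimulated EV replicate 2 (2), GW4869 cell replicate 2 (8), stimulated EV replicate 1 (24), GW4869 EV replicate 3 (0), and in the ratios resting EV replicate 2 (8), resting cell replicate 1 (2) and GW4869 EV replicate 3 (1). The cause was not tested.

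The deviations of same-numbered libraries from their group means had correlations of -0.373 to 0.162. With 3 libraries a group this cannot settle whether they were paired, which the labels did not say. With a replicate block the higher and lower calls were 24 and 9, 31 and 5, 27 and 16, and 14 and 27 in EVs against cells of resting, stimulated, DMSO and GW4869 cultures, 51 and 41 lower in stimulated cells and EVs, 15 lower in GW4869 EVs, and 16 higher, 4 lower and 7 lower in the ratios. Among sums and named loci the block ended 3 calls, the stimulated ratio of Arg-TCT 5FR_1 (0.97), Arg-ACG-3-2 3FR_1 in resting EVs (-0.91) and Asn-GTT-3-8 5FR_1 in GW4869 EVs (0.84). With 1 locus per anticodon and kind, 20 of 24 shares of 5′ kinds moved by more than 1 SD. Libraries of 1290918 to 3231626 counts left single members at 4 to 506 counts. This limits the low loci most, among them 3FR_2 loci and the 3FR_1 features of Arg-TCG and Arg-ACG.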
